A study of Caenorhabditis elegans with 39 samples.

Results

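Alg1A larvae were compared with N2 larvae of Caenorhabditis elegans by small RNA sequencing over 11 matched hours of development, from 20 to 30 h after plating. Alg1A is a mutant of alg-1 in the N2 strain background, per the labels, and N2 is the standard wild type without that mutation. The labels do not spell out the letter A. All animals were grown at 25 degrees from synchronized first-stage (L1) larvae, and RNA came from whole bodies. The comparison uses 22 of the series' 39 libraries, 11 of Alg1A and 11 of N2, with 1 library per genotype and hour. The libraries of 18 and 19 h were left out because the Alg1A libraries of those hours looked unusual, a choice made with their values known, and their values are given where a result rests on the omission. Alg1E, another alg-1 mutant in the same background, is used only to show where Alg1A differs from it. Each library is the only one of its genotype and hour, and the labels do not say whether cultures were separate. The p-values therefore rest on how much libraries of different hours scatter, and that scatter may be technical.

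The gene alg-1 encodes an Argonaute, a protein that holds a microRNA (miRNA) and brings it to target mRNAs, which are then repressed. A miRNA is cut from a hairpin precursor as a duplex of its 5p and 3p arms. One arm, the guide, is usually kept in the Argonaute and becomes abundant, and the other, the passenger, is usually discarded. In C. elegans larvae, miRNAs such as lin-4 and let-7 time the divisions and fates of the seam cells of the epidermis. The series title names phosphorylation of ALG-1 and its binding of miRNAs as the subject of the study. The alg-1 locus spans 13949110 to 13956261 of chromosome X on the + strand of WBcel235, the build also called ce11. Its own mRNA is not measured by a table of miRNAs, so the mutation was not checked here.

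The deposited table lists 437 mature miRNAs, of which 394 had a read in the 22 libraries and 237 passed the filter on low counts. Each Alg1A library held between 2516263 and 3893182 miRNA reads (median 2892326), and each N2 library between 1751599 and 4479656 (median 3529334). Reads assigned to no feature made up 34.5% ± 5.55 of reads in Alg1A and 39.1% ± 9.0 in N2 (SD over 11 libraries of each genotype). Levels are CPM, the reads of a miRNA scaled to a fixed total of miRNA reads, after TMM scaling, a factor per library that assumes that most miRNAs do not differ. Markers of the main tissues were present in every library: muscle miR-1-3p was never below 63204 CPM in Alg1A or 64646 CPM in N2, and intestinal miR-60-3p never below 18387 CPM in Alg1A or 19994 CPM in N2. In whole larvae, fewer cells of a type and less RNA per cell cannot be told apart.

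Of the 237 miRNAs, 94 (39.7%) differed between Alg1A and N2 by edgeR's quasi-likelihood test with the hour as a factor (Benjamini-Hochberg adjusted p under 0.05). In Alg1A, 38 (16.0%) rose and 56 (23.6%) fell. The differences were small: 7 rises and 0 falls exceeded 2-fold, and 18 rises and 13 falls exceeded 1.5-fold. The rises were mostly minor arms, meaning the arm of a hairpin with fewer reads over the 22 libraries, and the falls were mostly major arms. Of the 38 that rose, 27 were minor arms, 10 major arms and 1 a miRNA with a single listed arm. Of the 56 that fell, 12 were minor arms, 42 major arms and 2 single. In the 92 hairpins with both arms tested, 27 minor arms rose and 12 fell, while 3 major arms rose and 34 fell. When libraries were scaled by total counts, these major arms split into 16 higher and 17 lower. The number of calls was 61 without the pairing by hour (28 higher, 33 lower) and 51 with the 18 and 19 h libraries added (34 higher, 17 lower). Left out together after their values were seen, hours 20, 23 and 28, where N2 had its 3 lowest TMM factors (0.888, 0.852 and 0.888), left 65 calls, 34 higher and 31 lower. The split also depended on scaling, with 69 higher and 22 lower when libraries were scaled by total counts and 62 higher and 25 lower with TMM factors from the major arms alone, which moved the median log2 difference of all miRNAs by 0.16 and 0.13.

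Only 5 of the 237 miRNAs (2.11%) had libraries that did not overlap between the genotypes. All 5 were minor 5p arms and were higher in Alg1A at 11 of 11 hours, as the plot of 6 minor arms by hour shows for miR-230-5p, miR-83-5p, miR-46-5p, miR-47-5p and miR-63-5p. miR-46-5p is the minor arm of mir-46 (chromosome III, 13660515 to 13660611, + strand, outside protein-coding genes). Its level was 1027 CPM at the lowest, 1140 at the median and 1276 at the highest of the Alg1A libraries, against 431, 528 and 568 CPM in N2. Every Alg1A library thus stood well above every N2 library, with little movement over the hours in either genotype. The log2 difference was 1.18 (SE 0.073, 2.27-fold, edgeR adjusted p = 1.89e-09).

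**Figure D1:**
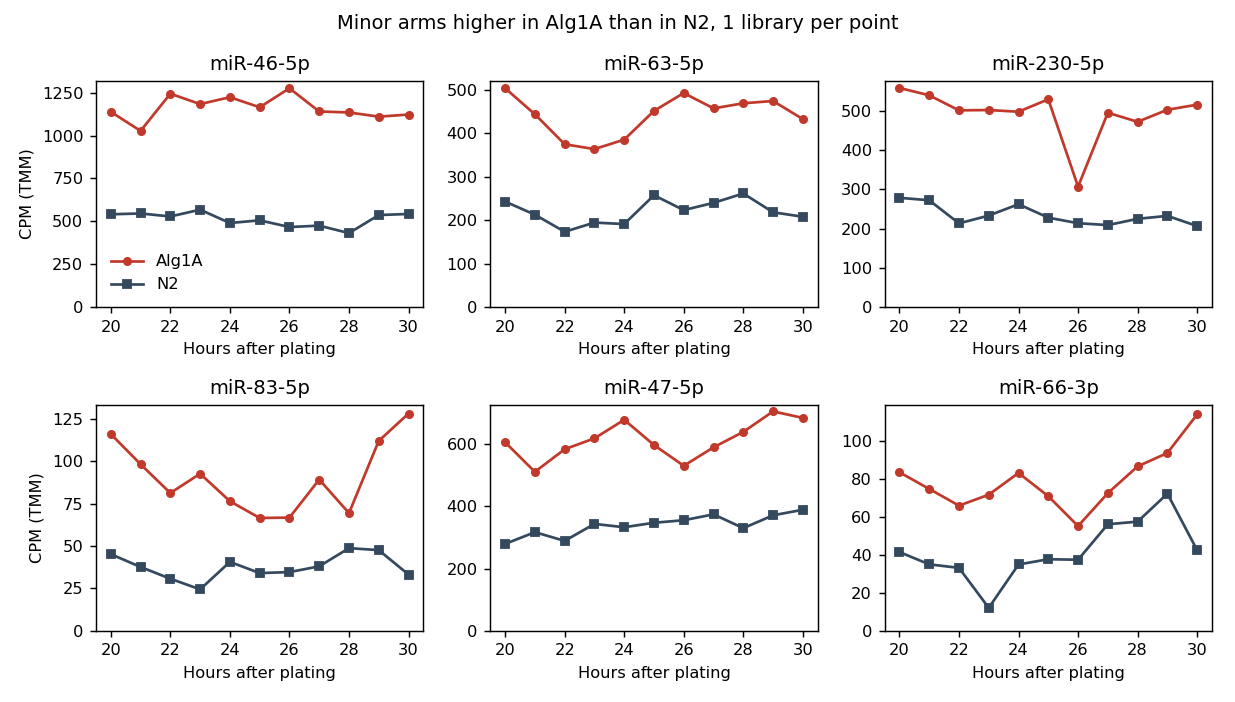
Level in CPM after TMM scaling (y axes, from 0) against hours after plating (x axes) for 6 minor arms, with 1 library per point, Alg1A as circles and N2 as squares. In the 5 panels other than miR-66-3p every Alg1A library lies above every N2 library, for instance at 1027 CPM or more against 568 CPM or less for miR-46-5p.

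mir-47, on chromosome X (13921250 to 13921346, + strand, outside protein-coding genes), belongs to the same family as mir-46. Its minor arm miR-47-5p had 511, 606 and 705 CPM (lowest, median, highest) in Alg1A, against 279, 344 and 389 CPM in N2, 0.86 higher on the log2 scale in Alg1A (SE 0.075, edgeR adjusted p = 1.16e-07). The genotypes did not overlap here either. miR-63-5p, from mir-63 on chromosome X (17598765 to 17598868, - strand, outside protein-coding genes), had 363, 451 and 504 CPM in Alg1A, against 173, 218 and 261 CPM in N2. The hourly differences of miR-63-5p lay between 0.81 and 1.14 on the log2 scale, around a fitted difference of 1.00 (SE 0.071, edgeR adjusted p = 7.87e-09). Both genotypes dipped and recovered in parallel between 20 and 30 h in that panel.

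miR-230-5p comes from mir-230 on chromosome X (5803892 to 5803989, + strand, outside protein-coding genes). It had 307, 502 and 559 CPM in Alg1A, against 207, 228 and 278 CPM in N2, 1.07 higher on the log2 scale in Alg1A (SE 0.083, edgeR adjusted p = 2.27e-08). The lowest Alg1A value, at 26 h, was the only one near the N2 range. miR-83-5p is the minor arm of mir-83 (chromosome IV, 7841631 to 7841728, + strand), a hairpin known for a role in gonad migration in C. elegans. It had 66.6, 89.3 and 128 CPM in Alg1A, against 24.4, 37.7 and 48.8 CPM in N2, the largest of the named rises (log2 difference 1.25, SE 0.12, edgeR adjusted p = 5.49e-07). All Alg1A libraries were again above all N2 libraries.

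The other 7 rises named by the rule overlapped in part between the genotypes. miR-65-3p had 139, 182 and 292 CPM in Alg1A, against 55.9, 99.1 and 147 CPM in N2 (log2 difference 0.92, SE 0.13, edgeR adjusted p = 7.41e-05). miR-66-3p, whose hairpin lies beside mir-65 in an intron of gcn-1 on chromosome III (2173108 to 2173206, + strand), had 55.1, 74.7 and 114 CPM in Alg1A, against 12.1, 37.7 and 72.2 CPM in N2 (log2 difference 0.99, edgeR adjusted p = 0.000217). Both were higher in Alg1A at 11 of 11 hours. miR-788-3p averaged 584 ± 118 CPM in Alg1A and 348 ± 96.1 CPM in N2 (SD of 11 libraries, as below), a log2 difference of 0.77 and higher in Alg1A at 10 of 11 hours. miR-247-5p averaged 41.8 ± 9.46 CPM in Alg1A and 24.6 ± 7.0 CPM in N2, a log2 difference of 0.77. miR-60-5p, the minor arm of the intestinal mir-60, averaged 20.5 ± 5.46 CPM in Alg1A and 11.3 ± 3.62 CPM in N2, a log2 difference of 0.86. miR-244-3p averaged 93.2 ± 24.2 CPM in Alg1A and 61.7 ± 24.0 CPM in N2 (log2 difference 0.64). These 11 were minor arms. The other named rise was miR-791-5p, a major arm from a hairpin known in carbon dioxide sensing neurons of C. elegans, which averaged 23.3 ± 7.13 CPM in Alg1A and 13.8 ± 4.72 CPM in N2 (log2 difference 0.75, edgeR adjusted p = 0.000635).

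The ratio of the arms within a library needs no scaling between libraries. limma was used to test the minor arm over the major arm as a log2 ratio, paired by hour, for 93 hairpins with enough reads. The ratio was higher in Alg1A for 37 hairpins (39.8%) and lower for 6 (6.45%), and the median ratio over the 93 was 1.25-fold that of N2. The largest change was in mir-46, whose minor arm amounted to 8.60%, 10.1% and 12.2% of the major arm (lowest, median, highest) in Alg1A, against 2.42%, 3.43% and 4.43% in N2 (2.99-fold, limma adjusted p = 7.08e-08). In mir-63 the minor arm amounted to 38.5%, 44.2% and 52.7% of the major arm in Alg1A, against 13%, 17.5% and 23.1% in N2 (2.54-fold, limma adjusted p = 7.08e-08). Neither hairpin's libraries overlapped.

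The minor arm of mir-230 amounted to 29.4%, 32.9% and 47.1% of its major arm in Alg1A, against 10.7%, 15.1% and 23.6% in N2 (2.18-fold, limma adjusted p = 1.46e-06). That of mir-83 amounted to 9.81%, 13.6% and 14.5% in Alg1A, against 4.33%, 4.55% and 6.53% in N2 (2.59-fold). The medians for mir-47 were 13.1% in Alg1A and 6.03% in N2, those for mir-788 14.1% in Alg1A and 6.44% in N2, those for mir-65 3.24% in Alg1A and 1.43% in N2, and those for mir-60 0.0734% in Alg1A and 0.0360% in N2. In these 8 hairpins, the largest changes by the rule, the ratio was higher in Alg1A at 11 of 11 hours. Of the 37 minor arms with a raised ratio, 28 were 5p arms and 9 were 3p arms, where 58 of the 93 hairpins tested had a 5p minor arm and 35 a 3p one.

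The 6 hairpins with a lower ratio were mir-1829b, mir-1829c, mir-1830, mir-67, mir-48 and mir-70. The minor arm of mir-1829c, miR-1829c-3p, had a median of 2.07% of the major arm in Alg1A and 4.78% in N2 (0.419-fold, limma adjusted p = 0.000669). In mir-1830 the arms were close to equal, and miR-1830-5p had a median of 52.9% of miR-1830-3p in Alg1A and 112% in N2 (0.516-fold). Which arm of mir-1830 is minor therefore depends on the libraries used, and with the arms set in N2 alone its log2 ratio is 0.95. For mir-67, mir-48 and mir-70 the ratios were 0.606-fold, 0.719-fold and 0.794-fold those of N2. With the 18 and 19 h libraries added, mir-1829b, mir-67 and mir-48 lost the call, and mir-70 lost it without hour 20 or hour 22. The 8 largest raised ratios kept the call under these settings.

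Both arms were tested for level in 92 hairpins, drawn in the scatter of the 2 arms. In 10 of them (mir-238, mir-45, mir-46, mir-47, mir-49, mir-61, mir-63, mir-65, mir-788 and mir-82) the minor arm rose and the major arm fell. In mir-46 the major arm miR-46-3p averaged 11440 ± 1155 CPM in Alg1A and 15305 ± 3417 CPM in N2 (log2 difference -0.40, edgeR adjusted p = 0.00562). In 16 hairpins, among them mir-83, mir-230, mir-66, mir-60 and mir-58a, the minor arm rose and the major arm was not called. In 20, among them let-7, mir-51 to mir-56, mir-80 and mir-81, the major arm fell and the minor arm was not called. Both arms fell in 4 hairpins (mir-240, mir-253, mir-5592 and mir-85), both rose in mir-244, and neither was called in 32. In 7 hairpins the minor arm alone fell, in mir-791 the major arm alone rose, and in mir-1829c the minor arm fell and the major arm rose. The minor arms had a median log2 difference of 0.13 with 27 higher and 12 lower, the major arms one of -0.16 with 3 higher and 34 lower, and all 237 miRNAs one of -0.06. Under total counts 40 minor arms were higher and 3 lower, while major arms split into 16 higher and 17 lower.

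**Figure D2:**
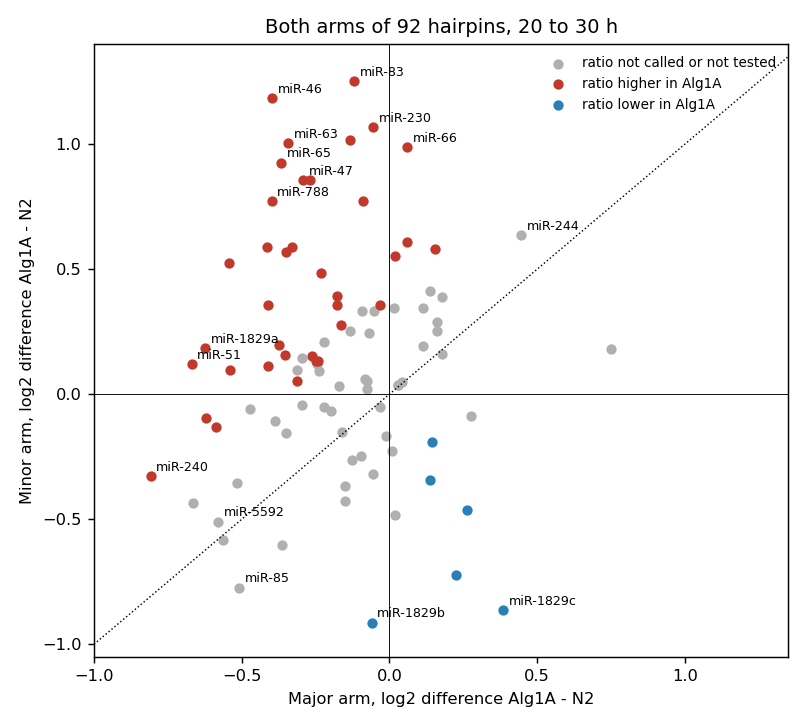
Log2 difference of Alg1A minus N2 in the minor arm (y axis) against that in the major arm (x axis) of 92 hairpins, coloured by the limma test of the arm ratio; the dotted diagonal marks equal differences. Hairpins such as mir-46, mir-63 and mir-65 lie in the upper left, with the minor arm higher and the major arm lower in Alg1A, and mir-1829b and mir-1829c lie below the diagonal.

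Minor arms took 1.98% ± 0.178 of the reads of these 92 hairpins in Alg1A and 1.59% ± 0.157 in N2 (SD of 11 libraries). The share lay between 1.71% and 2.27% in Alg1A and between 1.31% and 1.86% in N2, and was higher in Alg1A at 11 of 11 hours. The ranges overlapped across hours. miR-71-3p, the minor arm of the lifespan miRNA mir-71, averaged 4705 ± 1154 CPM in Alg1A and 5592 ± 1746 CPM in N2 and was not called. The arm ratio of mir-71 in Alg1A was 0.848-fold that of N2, against the direction of the share, and was not called. Without mir-71, a choice made with its values known, the share was 1.51% ± 0.123 in Alg1A and 1.08% ± 0.0989 in N2. Those ranges, 1.34% to 1.71% and 0.957% to 1.25%, did not overlap, but leaving out a hairpin that goes the other way favours such a gap.

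**Figure D3:**
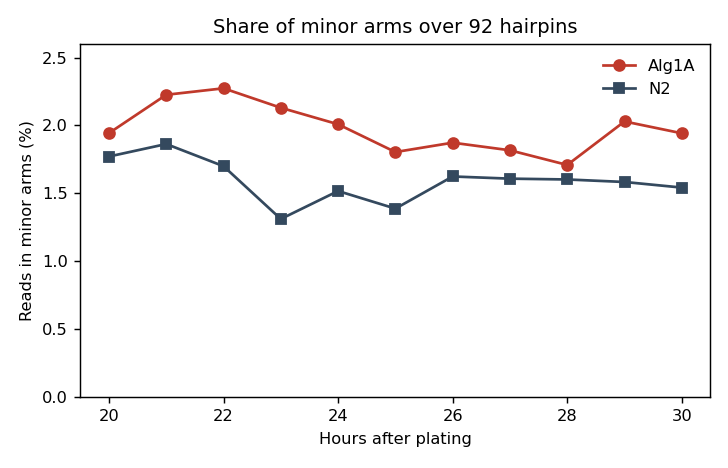
Share of reads in minor arms, as percent of the reads of 92 hairpins (y axis, from 0), against hours after plating (x axis), with 1 library per point. Alg1A (circles) lies above N2 (squares) at each hour, at 1.71% to 2.27% against 1.31% to 1.86%.

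Several families had most of their members lower in Alg1A, as the plot of families shows. The share lower was 23.6% of all miRNAs, with 34 of the 92 major arms and 12 of the 92 minor arms. All 6 members of the mir-51 family, which is required for normal embryonic development in C. elegans, fell, with log2 differences from -0.67 to -0.26 and a median of -0.43. miR-51-5p (mir-51, chromosome IV, 11026013 to 11026112, - strand, outside protein-coding genes) had 3780, 6659 and 8942 CPM in Alg1A, against 5821, 11142 and 18190 CPM in N2 (log2 difference -0.67, SE 0.15, edgeR adjusted p = 0.00242). The genotypes overlapped, and Alg1A was lower at 9 of 11 hours. Of the clustered members on chromosome X, miR-56-3p averaged 12331 ± 2286 CPM in Alg1A and 19047 ± 6335 CPM in N2 (log2 difference -0.59). miR-52-5p, one of the 5 miRNAs with most reads, averaged 88844 ± 8988 CPM in Alg1A and 107199 ± 16390 CPM in N2 (log2 difference -0.26, edgeR adjusted p = 0.0154).

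The sizes of these falls moved together over the hours. At 20, 23 and 28 h the hourly log2 difference of miR-51-5p was -1.28, -1.58 and -1.25, and that of miR-56-3p -1.09, -1.49 and -1.17. At 25 and 29 h those of miR-51-5p were 0.21 and 0.35, and those of miR-56-3p 0.14 and 0.27. The N2 libraries of 20, 23 and 28 h are those with the lowest TMM factors of N2, and the part of that scaling in the falls was not tested. With these 3 hours left out together, 2 of 6 members of the mir-51 family were lower, and miR-51-5p had a log2 difference of -0.41 (edgeR adjusted p = 0.0276). In the same fit 23 of 92 major arms and 5 of 92 minor arms were lower. The mir-44, mir-46, mir-58 and mir-1829 families had 2 of 4, 2 of 2, 3 of 4 and 3 of 3 lower.

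**Figure D4:**
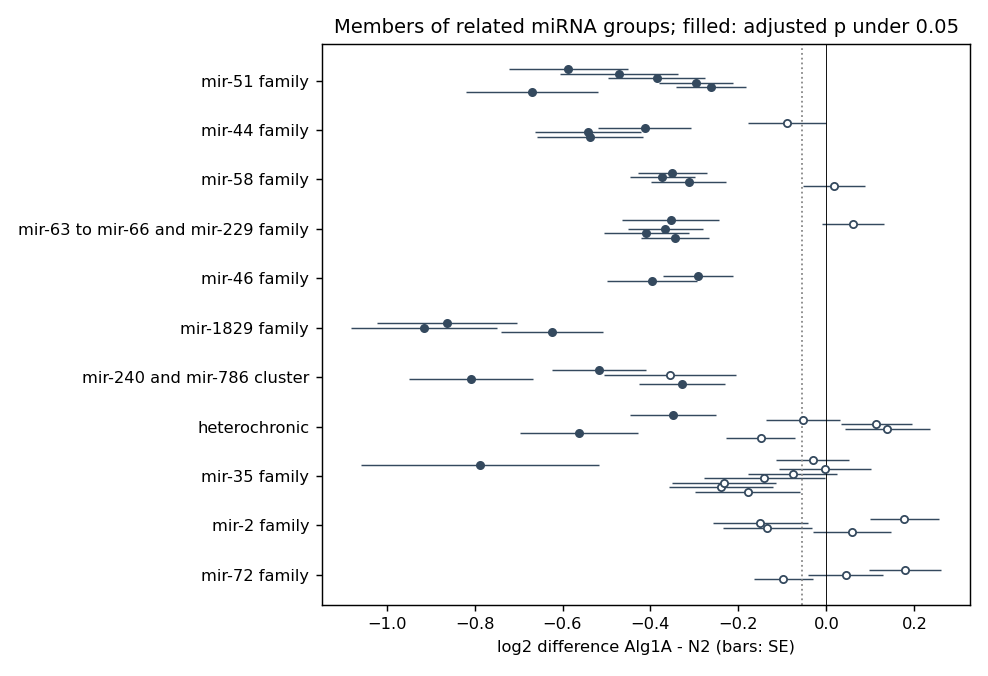
Log2 difference of Alg1A minus N2 (x axis) for each tested member of 11 groups of related miRNAs (rows), with bars for the SE and filled points for an edgeR adjusted p under 0.05; the dotted line is the median of all 237 miRNAs, -0.06. All 6 members of the mir-51 family and all 3 listed arms of the mir-1829 family are filled and below 0, and no member of the mir-2 or mir-72 families is filled.

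In the mir-44 family 3 of 4 members fell, where 23.6% of all miRNAs and 34 of the 92 major arms did. miR-44-3p averaged 22757 ± 3474 CPM in Alg1A and 34410 ± 12044 CPM in N2 (log2 difference -0.54, edgeR adjusted p = 0.00246), and miR-45-3p had the same difference. These identical or near-identical miRNAs may share reads, so their separate values are uncertain and they may not count as separate members. Of the mir-58 family, relatives of the fly growth regulator bantam, miR-80-3p, miR-81-3p and miR-82-3p fell, with log2 differences of -0.31, -0.37 and -0.35, each lower in Alg1A at 11 of 11 hours. miR-58a-3p, the most abundant miRNA, averaged 102065 ± 15287 CPM in Alg1A and 100417 ± 11194 CPM in N2 (log2 difference 0.02, edgeR adjusted p = 0.849). In the mir-63 to mir-66 and mir-229 family 4 of 5 members fell, with miR-66-5p the exception (log2 difference 0.06). Both major arms of the mir-46 family fell.

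The mir-1829 family lies at 3 places on chromosome X, each in an intron on the strand of its host: mir-1829a in gas-1 (15588311 to 15588370), mir-1829b in F20D1.3 (14977119 to 14977178) and mir-1829c in piki-1 (15236362 to 15236423). All 3 of its 3p arms fell. miR-1829a-3p is a major arm, while miR-1829b-3p and miR-1829c-3p are minor arms, of which 12 of 92 fell. miR-1829a-3p had 151, 217 and 269 CPM in Alg1A, against 261, 333 and 424 CPM in N2 (log2 difference -0.62, SE 0.12, edgeR adjusted p = 0.000614), and was lower at 11 of 11 hours. miR-1829b-3p had 20.1, 40.8 and 57.3 CPM in Alg1A, against 45.1, 70.6 and 119 CPM in N2, the largest fall by the rule at a log2 difference of -0.91 (edgeR adjusted p = 0.000614). miR-1829c-3p averaged 11.3 ± 3.23 CPM in Alg1A and 20.7 ± 6.33 CPM in N2 (log2 difference -0.86). The 5p arms of the same hairpins were not called lower: their log2 differences were 0.18 for miR-1829a-5p and -0.06 for miR-1829b-5p, neither called, and miR-1829c-5p rose by 0.39 (edgeR adjusted p = 0.00970).

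The medians of these 6 families stayed below 0 under RLE, total counts and TMM factors from the major arms. RLE left the counts of members called as they were. Of the 92 major arms, 17 were lower with total counts and 18 with TMM factors from the major arms. Of the 92 minor arms, 3 and 5 were lower. In the mir-51 family 2 of 6 were lower with total counts and 3 of 6 with TMM factors from the major arms, and the mir-44 family kept a count of 3 of 4 in both. Under either scaling 2 of 4 of the mir-58 family, 1 of 2 of the mir-46 family and 3 of 5 of the mir-63 to mir-66 and mir-229 family were lower. miR-66-5p was called higher in both, and miR-58a-3p under total counts. With the 18 and 19 h libraries added, 10 of 91 major arms and 4 of 91 minor arms were lower. In that fit 1 of 6 of the mir-51 family, 2 of 4 of the mir-44 family, 0 of 4 of the mir-58 family, 0 of 2 of the mir-46 family and 1 of 5 of the mir-63 to mir-66 and mir-229 family were lower. The mir-1829 family had 3 of 3 lower under each of these settings. At the 2 hours left out, miR-51-5p stood the other way, at 16066 and 15692 CPM in Alg1A (18 and 19 h, scaled over 26 libraries) and 11657 and 13226 CPM in N2. miR-1829b-3p likewise had 77.3 and 92.6 CPM in Alg1A, against 54.5 and 50.3 CPM in N2. The rise of miR-46-5p was present at both hours, with 1501 and 849 CPM in Alg1A and 468 and 485 CPM in N2, and so was that of miR-63-5p, with 380 and 607 CPM in Alg1A and 251 and 203 CPM in N2. miR-83-5p was not higher there, with 35.8 and 18.7 CPM in Alg1A and 41.8 and 30.3 CPM in N2.

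Of the 6 heterochronic miRNAs, which time larval cell fates, 2 fell and 0 rose, where 23.6% of all miRNAs fell and 16.0% rose, and the median log2 difference was -0.10. let-7-5p, which promotes the change from larva to adult, had 500 CPM at the lowest, 10661 at the median and 15728 at the highest in Alg1A, against 634, 14720 and 20483 CPM in N2. It was lower in Alg1A at 10 of 11 hours (log2 difference -0.56, SE 0.13, edgeR adjusted p = 0.00348). The gap was widest at 21 to 23 h. At 22 h let-7-5p stood at 2473 CPM in Alg1A and 4924 CPM in N2, and at 23 h at 7027 CPM in Alg1A and 19531 CPM in N2, a library of N2 above its neighbours. Without hour 23 the log2 difference was -0.47 (edgeR adjusted p = 0.00578). miR-237-5p, a relative of lin-4, averaged 2420 ± 535 CPM in Alg1A and 3100 ± 787 CPM in N2 (log2 difference -0.35, edgeR adjusted p = 0.00994). Without hours 20, 23 and 28 together, miR-237-5p was not called (log2 difference -0.22, edgeR adjusted p = 0.0540). The other 4 were not called, with log2 differences of -0.15 for lin-4-5p, 0.14 for miR-48-5p, 0.11 for miR-84-5p and -0.05 for miR-241-5p. The median of the list turned to 0.06 under total counts and 0.03 under TMM factors from the major arms, with 2 higher and 1 lower in both. Those higher were miR-48-5p (edgeR adjusted p = 0.0255 and 0.0492) and miR-84-5p (0.0203 and 0.0344), and let-7-5p was lower. miR-237-5p lost the call in both (edgeR adjusted p = 0.0889 and 0.0669).

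Several of the falls were in miRNAs that climb steeply through these hours, drawn on a log scale in the plot of 6 falls by hour. miR-85-3p stood at 13.5 CPM at 20 h and 5438 CPM at 30 h in Alg1A, against 12.8 and 6304 CPM in N2. It was lower in Alg1A at 10 of 11 hours (log2 difference -0.51, SE 0.099, edgeR adjusted p = 0.000974). mir-240 and mir-786 lie together on chromosome X (7882622 to 7882840, + strand), and miR-786 is known for a role in the defecation rhythm of the C. elegans intestine. miR-240-3p stood at 15.4 CPM at 20 h and 263 CPM at 30 h in Alg1A, against 21.1 and 473 CPM in N2 (log2 difference -0.81, SE 0.14, edgeR adjusted p = 0.000478). miR-786-3p had a log2 difference of -0.52, and both were lower in Alg1A at 11 of 11 hours. Of the neighbours miR-357-3p and miR-358-3p on chromosome V, the log2 differences were -0.55 and -0.65, and miR-5592-3p had one of -0.58. miR-358-3p had a median of 1.06 CPM in Alg1A and 6.09 CPM in N2. It was tested in only 17 of the 24 other settings, kept the call in 7 of them and lost it in 10. Among those 10 were total counts (edgeR adjusted p = 0.0782), TMM factors from the major arms (0.0776) and the fits without hour 20, 21, 24 or 25. miR-5592-3p was tested in 23 of the other settings, kept the call in 16, lost it in 6 and turned direction in 1. Among those 6 were total counts (edgeR adjusted p = 0.0595) and TMM factors from the major arms (0.0570). miR-85-5p, the minor arm of mir-85, had a median of 3.90 CPM in Alg1A and 8.31 CPM in N2 and fell with the major arm (log2 difference -0.77, edgeR adjusted p = 0.00810). The last of the 12 named falls, miR-2210-3p, does not climb and averaged 10.8 ± 3.91 CPM in Alg1A and 16.1 ± 3.40 CPM in N2 (log2 difference -0.62, edgeR adjusted p = 0.00576).

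**Figure D5:**
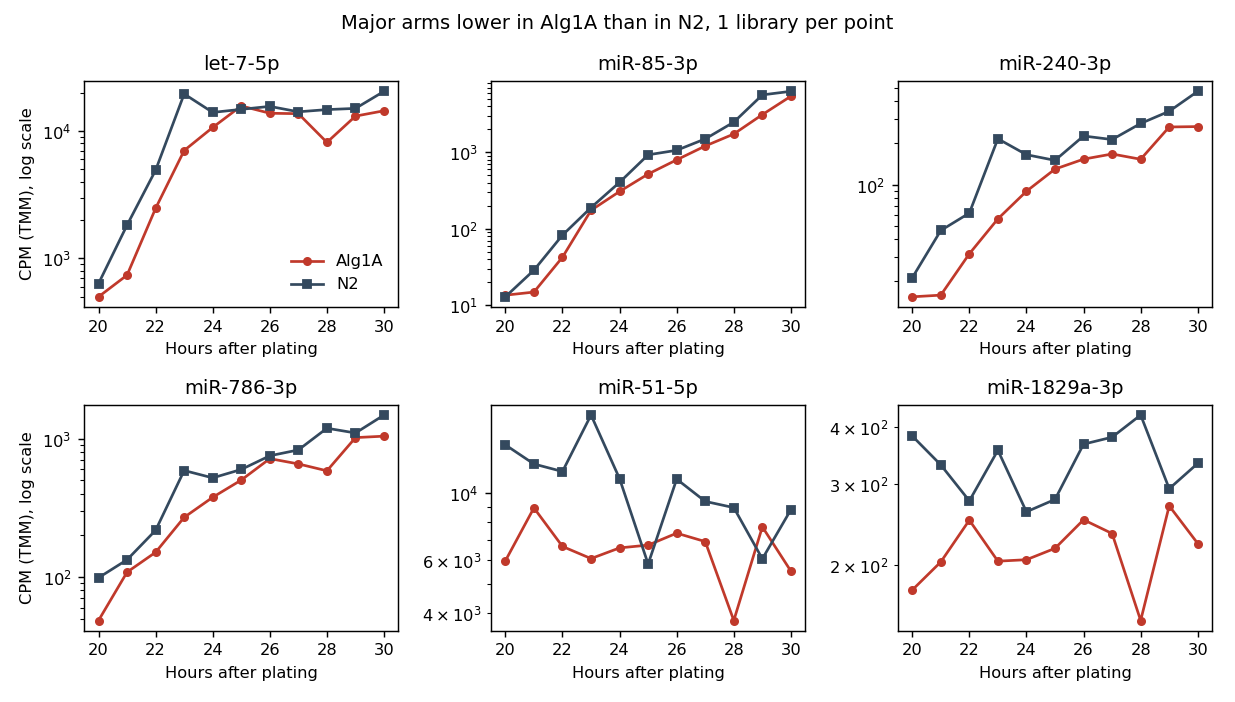
Level in CPM after TMM scaling (y axes, log scale) against hours after plating (x axes) for 6 major arms, with 1 library per point, Alg1A as circles and N2 as squares. let-7-5p, miR-85-3p, miR-240-3p and miR-786-3p climb in both genotypes with Alg1A mostly below N2, while miR-51-5p and miR-1829a-3p do not climb and lie lower in Alg1A at most hours.

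How far the climbing miRNAs differ depends on which hours are matched. With each Alg1A library set against N2 of 1 h younger, let-7-5p had a log2 difference of -0.08 (edgeR adjusted p = 0.642), miR-786-3p -0.08, miR-358-3p -0.04, miR-357-3p -0.02 and miR-5592-3p 0.28, none of them called. miR-85-3p was then higher in Alg1A by 0.33 (edgeR adjusted p = 0.0206), while miR-240-3p stayed lower by a log2 difference of -0.40 (edgeR adjusted p = 0.00864). With N2 of 1 h older the differences grew, to -1.04 for let-7-5p and -1.41 for miR-85-3p. Whether the Alg1A larvae were younger at the same labelled hour or made less of these miRNAs cannot be told apart from these libraries. Of the miRNAs that do not climb, miR-51-5p had log2 differences of -0.68 and -0.59 with N2 of 1 h younger and 1 h older, and miR-46-5p 1.19 and 1.2. In all, 65 miRNAs were called under each of the labelled, younger and older matching, 32 of them higher and 33 lower at the labelled hours. Their direction was not required to be the same, and miR-85-3p, counted as lower, turned with N2 of 1 h younger.

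Of the 8 mir-35 family members, which act in embryos, 1 fell, where 23.6% of all miRNAs did. It was miR-41-3p, which averaged 112 ± 67.7 CPM in Alg1A and 202 ± 142 CPM in N2 (log2 difference -0.79, edgeR adjusted p = 0.0287). The call was lost in 9 of 24 other settings, among them total counts (edgeR adjusted p = 0.104), TMM factors from the major arms (0.0776), N2 of 1 h older (0.0678) and the fits without hour 22, 24, 27 or 29. The mir-2 and mir-72 families had 0 of 4 and 0 of 3 called. Under total counts and TMM factors from the major arms 1 member of each was called higher, and 1 of the mir-2 family also under RLE. Muscle miR-1-3p averaged 86160 ± 20756 CPM in Alg1A and 85924 ± 15006 CPM in N2 (log2 difference -0.01), and intestinal miR-60-3p 24814 ± 5800 CPM in Alg1A and 29594 ± 4879 CPM in N2 (log2 difference -0.27, edgeR adjusted p = 0.0592). miR-60-3p was called lower in 4 of 24 other settings, among them N2 of 1 h younger (log2 difference -0.28, edgeR adjusted p = 0.0258). Under total counts its log2 difference was -0.11 (edgeR adjusted p = 0.475). Of the 3 neuronal miRNAs, lsy-6-3p, needed for the asymmetry of a pair of taste neurons, fell by 0.26 on the log2 scale (edgeR adjusted p = 0.0393). It was not called lower under total counts, TMM factors from the major arms or N2 of 1 h older. Nor was it with the 18 and 19 h libraries added or with hours 20, 23 and 28 left out together. miR-124-3p and miR-791-3p were not called, but under total counts 1 of the 3 neuronal miRNAs was called higher. Of 4 miRNAs listed as mirtrons, hairpins spliced from short introns, 3 lie in introns in the annotation used and miR-1018 does not. miR-1019-5p rose (log2 difference 0.54, edgeR adjusted p = 0.00166). miR-70-3p, also among the 5 with most reads, averaged 91908 ± 13809 CPM in Alg1A and 83908 ± 16555 CPM in N2 (log2 difference 0.14, edgeR adjusted p = 0.0779). Of 7 miRNAs that act in stress responses or lifespan 1 was called, miR-238-3p, which fell (log2 difference -0.42), where 23.6% of all miRNAs fell. None of the 7 was called lower under total counts, TMM factors from the major arms, with the 18 and 19 h libraries added or with hours 20, 23 and 28 left out together. Under total counts 1 of the 7 was called higher. The smallest lists hold too few members to be read against the share of all miRNAs that fell. In them, 1 of 2 of the mir-75 family and 1 of 3 of the mir-238 family fell, 0 of 2 of the mir-87 and mir-251 families were called, and of the mir-232 family miR-232-3p rose by 0.29 and miR-357-3p fell. Under total counts and TMM factors from the major arms, 0 of 2 of the mir-75 family and 0 of 3 of the mir-238 family were lower. In both, 1 of 2 of the mir-251 family was higher. Of the 8 let-7 family members 1 rose and 2 fell, where 16.0% of all miRNAs rose and 23.6% fell. Under total counts, and under TMM factors from the major arms, 3 of the 8 were higher and 1 lower. Of the distant let-7 relatives, miR-1821-3p averaged 61.4 ± 13.8 CPM in Alg1A and 42.2 ± 8.12 CPM in N2 (log2 difference 0.53, edgeR adjusted p = 0.00383).

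No miRNA changed its difference between the genotypes linearly with hour by edgeR's quasi-likelihood test (0 of 237, 0%), and 13 had an unadjusted p under 0.05. The smallest p among differences that grew was that of miR-231-3p, at 0.10 log2 per hour, and among those that shrank that of miR-8196b-3p, at -0.12 log2 per hour, both with an edgeR adjusted p of 0.278. A spline interaction with 3 degrees of freedom called 2. miR-251 stood higher in Alg1A at 22 to 24 h, for example 1667 CPM in Alg1A and 922 CPM in N2 at 23 h, and lower at 26 to 28 h, for example 1246 CPM in Alg1A and 1997 CPM in N2 at 27 h (edgeR adjusted p = 0.0177). For miR-60-3p the same test gave an edgeR adjusted p of 0.0485. At 25 h miR-60-3p had 18387 CPM in Alg1A and 28891 CPM in N2, and at 30 h 36743 CPM in Alg1A and 30472 CPM in N2.

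Alg1A and Alg1E were compared directly in 1 fit of 33 libraries over the same hours, in which 185 of 244 miRNAs (75.8%) differed. Alg1E against N2 called 188 (77.0%). TMM scaling assumes that most miRNAs do not differ, and most were called in both comparisons. The values of this fit therefore rest on an assumption that may not hold, and its part in them was not tested. The Alg1E libraries of these hours held 1146950 to 4668890 miRNA reads, with 35.8% to 67.0% of reads assigned to no feature. In Alg1A the ranges were 2516263 to 3893182 and 25.3% to 43.5%, and in N2 1751599 to 4479656 and 26.2% to 54.1%. Both mutants are set against the same N2 libraries, so their differences from N2 are given side by side only, all from this fit. For miR-46-5p the log2 difference from N2 was 1.22 in Alg1A and 0.59 in Alg1E, and Alg1A was higher than Alg1E (direct difference 0.63, edgeR adjusted p = 8.85e-07). miR-63-5p was at 1.05 in Alg1A and 0.29 in Alg1E, and miR-230-5p at 1.11 in Alg1A and 0.32 in Alg1E, and both were higher in Alg1A by the direct test (edgeR adjusted p = 2.48e-06 and 1.52e-05). miR-65-3p and miR-66-3p stood at 0.96 and 0.98 in Alg1A, against -0.01 and 0.04 in Alg1E, and were higher in Alg1A (edgeR adjusted p = 0.00120 and 0.000699). The order was turned for miR-83-5p, with 1.29 in Alg1A and 2.50 in Alg1E (edgeR adjusted p = 1.22e-09), and for miR-60-5p, with 0.89 in Alg1A and 3.28 in Alg1E. Of the 37 miRNAs raised in Alg1A over N2 and tested in this fit, 17 were higher and 18 lower in Alg1A than in Alg1E, and of the 56 that fell, 22 were higher and 17 lower.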

How the data were processed

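Total RNA of whole larvae was made into small RNA libraries with a QIAseq miRNA kit, as the labels' protocols say. The submitters' processing notes name the build ce11 and, as tools, HTSeq, SAMtools 1.9, Bowtie 1.2.2 and cutadapt 2.3. The sources used here do not state their settings or any use of the kit's molecular identifiers, so PCR copies may count as reads and near-identical miRNAs may share them. The authors deposited whole-number counts per mature miRNA, with no normalization. 5 HTSeq summary entries that name no miRNA did not enter library sizes or tests. Samples were grouped by the labelled genotype and hour, and no 2 libraries held identical counts.

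edgeR 4.0.16 in R 4.3.3 (filterByExpr, TMM) tested genotype with hour as a factor, two-sided, with Benjamini-Hochberg adjustment over 237 miRNAs at 0.05. The hour comes from the labels and pairs libraries by developmental time, not by a shared culture. Across miRNAs the median correlation of hourly differences between neighbouring hours was 0.04, where -0.09 is expected of independent hours. limma 3.58.1 tested log2 arm ratios (prior count 0.5, mean of at least 10 reads per arm). Change with hour was tested as genotype by linear hour beside a spline of hour with 3 degrees of freedom. Scripts were tested on simulated counts. Loci are from the WBcel235 annotation, and 240 of 247 hairpin names were placed on 1 locus.

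Named miRNAs are the 12 largest rises and 12 largest falls past the threshold with at least 10 CPM and one direction at 8 or more of 11 hours, with the other arm of each, 6 heterochronic miRNAs, the 5 with most reads, the 8 largest arm ratios each way, and the 5 smallest p each way for change with hour. Others named are list members or were chosen after their values were seen. The libraries, members, lists and rule were chosen with earlier results of these data known. Alternatives were other scalings (RLE, total counts, TMM from major arms), filters, DESeq2 1.42.0, limma-voom, no pairing, a spline, 33 and 26 libraries, N2 shifted by 1 h, and each hour left out.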

Additional observations from a re-analysis of the deposited data

Results flagged for a closer look

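miR-231-3p (chromosome III, 7545057 to 7545155, - strand) was lower in Alg1A than in N2 at each hour from 20 to 24 h and higher at each hour from 25 to 30 h. Its median log2 difference was -0.29 in the early hours and 0.38 in the late hours, which are 0.67 apart. Levels were 127 CPM in Alg1A and 169 CPM in N2 at 20 h, and 80.3 CPM in Alg1A and 61.5 CPM in N2 at 30 h. The difference between the early and late hours was not itself tested. The linear change with hour gave an edgeR adjusted p of 0.278 and the spline interaction one of 0.0761.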

How the results depend on the processing

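The count of 94 calls was 61 with no replicate block (genotype alone, without the pairing by hour), 48 in the fit of 33 libraries (27 higher, 21 lower) and 51 with the 18 and 19 h libraries, and lay between 82 and 98 under the other settings, 82 to 93 with an hour left out. With hours 20, 23 and 28 left out together, a setting chosen after seeing the data, it was 65. Changed arm ratios numbered 43, and 32 to 48 under all alternatives. 28 miRNAs were called under all 24 planned settings, 19 higher (15 of them minor arms) and 9 lower, and all 28 were also called without those 3 hours. Among the 9 are miR-44-3p and miR-45-3p, which may share reads. Change with hour called 0, and 2 with the spline interaction. Directions turned mostly for values near 0 that were not called. With N2 1 h younger, log2 differences were 0.0110 for miR-85-5p, 0.28 for miR-5592-3p, 0.31 for miR-5592-5p, 0.33 for miR-85-3p and 0.0027 for miR-241-5p. Under total counts they were 0.0142 for lin-4-5p, 0.11 for miR-241-5p, 0.15 for miR-1-3p, 0.0338 for miR-56-5p, 0.0436 for miR-83-3p, 0.0736 for miR-247-3p, 0.10 for miR-1829b-5p, 0.11 for miR-230-3p and 0.0697 for miR-2210-5p. Under TMM from major arms they were 0.0763 for miR-241-5p, 0.12 for miR-1-3p, 0.0093 for miR-83-3p, 0.0392 for miR-247-3p, 0.0690 for miR-1829b-5p, 0.0743 for miR-230-3p and 0.0359 for miR-2210-5p. With 26 libraries they were -0.0268 for miR-84-5p, 0.0098 for miR-241-5p, 0.0718 for miR-247-3p and 0.19 for miR-2210-5p, and the miR-1018 slope was 0.000295 log2 per hour. miR-1-3p was at 0.0018 under RLE and DESeq2, 0.0218 without the filter, 0.0040 without the block and 0.0228 with 33 libraries. miR-1830, with its arms set in N2, had a log2 ratio of 0.95. With each hour left out in turn, miR-241-5p ranged from -0.0860 to 0.0044, miR-58a-3p from -0.0111 to 0.0663, miR-1-3p from -0.0627 to 0.0567, miR-230-3p from -0.11 to 0.0131 and miR-2210-5p from -0.15 to 0.0391. The causes were not tested. miR-358-3p and miR-5592-3p had 0 reads in some libraries. At 20 h miR-358-3p had none in Alg1A and miR-5592-3p none in N2, where at 30 h they stood at 31.2 CPM and 234 CPM. The N2 library of 20 h held 4479656 miRNA reads and that of 30 h 1751599, and the part of depth was not tested.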
